A study of Mus musculus with 4 samples.

Results

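On the mouse microarrays used here, 20719 of 56605 probes carry a name that is not a RefSeq accession, and 9956 of these, the transcripts described here, gave a signal on every array. The names were taken from the scanner's SystematicName field, and a probe was left out if that field began with NM_, NR_, XM_ or XR_. Members were then chosen by the scanner's own flag for a spot well above background, which had to be set on all 4 arrays, so the presence of a signal in each group is what selected them and is no finding. The flag was set on 1 to 3 arrays for 2705 further probes and on no array for 8046, and 12 lacked a value on an array after outlying spots were left out. Just inside the limit, the nearest members stood at -5.53, -5.53 and -5.51 in LysM-St18flox macrophages. Just outside it, the nearest excluded probes stood at -4.61, -4.63 and -4.64 in wild-type osteoclasts. The lowest signal with the flag on that array was -4.89, so flagged and unflagged probes overlapped in signal. Excluded probes could be brighter on other arrays, as ENSMUST00000163531 was, at 0.33 and 0.55 in wild-type and LysM-St18flox osteoclasts.

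The arrays measured RNA of macrophages and osteoclasts grown from mouse bone marrow, with 1 array for each of 4 groups. Wild-type macrophages and LysM-St18flox macrophages came from marrow kept for 4 days in 25 ng/ml M-CSF. Wild-type osteoclasts and LysM-St18flox osteoclasts came from such macrophages after 3 more days in which 50 ng/ml RANKL was added to the same dose of M-CSF, so RANKL and time in culture cannot be told apart. By convention, LysM-St18flox denotes a loxP-flanked St18 gene with Cre recombinase made from the lysozyme M locus, which is active in myeloid cells and not only in osteoclasts. The labels give neither the number, sex and age of the mice nor whether wild-type mice carried Cre or the flox allele.

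An array design of this kind covers protein-coding genes with RefSeq accessions and adds probes for transcripts known from other evidence. Ensembl transcripts are gene models, AK and BC entries are full-length cDNA clones from large mouse collections, and entries named by a genomic position stand for long intergenic non-coding RNAs, which are transcribed like messenger RNAs but encode no known protein. Some non-coding RNAs of this kind act on chromatin, such as Xist, which coats the inactive X chromosome, and others on proteins, such as Nron, described as a repressor of NFAT, the transcription factor family whose member Nfatc1 drives osteoclast formation.

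Ensembl transcripts were the most numerous form, with 3881 members of 7284 probes (53.3%). AK clones gave 2707 of 6036 (44.8%), genomic positions 2106 of 4450 (47.3%), other GenBank entries 493 of 1445 (34.1%), BC clones 274 of 497 (55.1%), and TC or NAP identifiers 401 of 616 (65.1%). A remainder of 94 members of 391 probes (24.0%) held 89 named by the probe itself and 5 named by a transcript. By comparison, 18929 of 29638 NM_ probes (63.9%) met the same flag. The members were dim as a class, with a median signal of -1.88 on the log2 scale relative to each array's 75th percentile, against 0.63 for NM_ probes. Among the forms the median signal ran from -2.42 for genomic positions to 2.44 for TC or NAP identifiers. Brightness depends on the probe as well as the transcript, so it is used here only to match probes and not as a level.

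The files pair no member with a gene. A table of mouse genes (assembly GRCm38.p6) whose symbols or synonyms equal the name gave a gene for 14 members, and 9942 stay under the name on the array. Of the 14, 10 had a promoter in the RefSeq promoter table of GRCm38.p6, spanning 250 bases before to 50 after the start. Promoters of 4 of them are printed, each in the direction of transcription, because these genes hold the named differences described next and the known link to NFAT. Capitals mark matches, on either strand, to TGANTCA (AP-1), TGGAAA (NFAT) or GAGGAA (PU.1), letters bound by factors of osteoclast and macrophage genes. CACGTG (E-box) was also searched. These letters stand in 7.8%, 21.4%, 28.3% and 7.2% of all 32851 promoters in the table, in the order named, and a match is a description of the letters alone.
Sbno2, chr10:80102653-80102952, minus strand: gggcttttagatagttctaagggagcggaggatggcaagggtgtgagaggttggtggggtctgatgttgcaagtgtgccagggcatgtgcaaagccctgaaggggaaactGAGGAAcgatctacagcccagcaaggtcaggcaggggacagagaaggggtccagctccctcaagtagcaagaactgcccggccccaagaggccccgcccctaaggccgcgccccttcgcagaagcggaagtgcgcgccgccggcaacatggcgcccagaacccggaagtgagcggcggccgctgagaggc
Kcnq1ot1, chr7:143296498-143296797, minus strand: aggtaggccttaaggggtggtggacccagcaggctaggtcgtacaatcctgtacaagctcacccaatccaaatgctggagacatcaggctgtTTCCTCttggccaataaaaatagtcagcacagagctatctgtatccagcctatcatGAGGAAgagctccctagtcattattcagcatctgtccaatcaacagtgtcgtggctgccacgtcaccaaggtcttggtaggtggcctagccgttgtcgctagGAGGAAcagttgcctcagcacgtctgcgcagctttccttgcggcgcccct
Nron, chr2:33805566-33805865, plus strand: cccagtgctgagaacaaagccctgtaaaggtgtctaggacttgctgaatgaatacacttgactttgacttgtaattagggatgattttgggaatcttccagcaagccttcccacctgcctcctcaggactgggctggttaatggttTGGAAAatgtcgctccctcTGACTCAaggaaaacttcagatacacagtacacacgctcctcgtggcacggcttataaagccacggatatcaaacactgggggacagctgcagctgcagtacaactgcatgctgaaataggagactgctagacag
Tug1, chr11:3648765-3649064, minus strand: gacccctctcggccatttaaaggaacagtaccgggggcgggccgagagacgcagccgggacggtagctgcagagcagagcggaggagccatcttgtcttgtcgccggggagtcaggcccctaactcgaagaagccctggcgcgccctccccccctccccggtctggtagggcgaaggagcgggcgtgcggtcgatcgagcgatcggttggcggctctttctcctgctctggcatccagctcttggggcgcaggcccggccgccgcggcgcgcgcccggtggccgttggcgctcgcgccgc

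The Nron promoter held 1 AP-1 and 1 NFAT match, that of Kcnq1ot1 3 PU.1 matches, and the printed one of 3 Sbno2 promoters 1 PU.1 match, with none of the searched letters in the other two Sbno2 windows. No printed match overlapped another. The Tug1 promoter held none of the searched letters. It was the richest of the members' promoters in G or C (71.3%) and in CG dinucleotides (37), against medians of 52.7% and 7 over all promoters. The Marf1 promoter, not printed, came next with 68.3% and 24.

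Signals are log2 values relative to the array's 75th percentile, and 4 values in a row are in the order wild-type macrophage, wild-type osteoclast, LysM-St18flox macrophage, LysM-St18flox osteoclast. A change is a difference between arrays of at least 2-fold (1 on the log2 scale), which is a criterion of size. With 1 array per group no difference has a replicate check, and no test was made. The 159 members printed in 10 spots each had a median SD between spots of 0.030 to 0.040 on the 4 arrays, from which the SD of a difference was calculated as 0.044 to 0.053. That is precision within a slide and leaves out the spread between cultures and mice. The other 9797 members had 1 spot.

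The arrays matched their labelled cell types. All 10 osteoclast markers fixed for this check, among them Ctsk and Acp5, were higher in osteoclasts of both genotypes by at least 2-fold, and all 10 macrophage markers were well above background on every array, 5 of them lower in osteoclasts of both genotypes. Markers of other cells were above background on at least 1 array for 9 of 9 neutrophil, 4 of 8 B cell, 5 of 8 T and NK cell, 1 of 5 erythroid, 2 of 5 mast cell and basophil, 2 of 5 stromal and 3 of 4 endothelial genes. The summed neutrophil signal, relative to the 75th percentile, was 33.1, 14.3, 40.4 and 9.86, and its part in the differences between cell types was not tested. St18, the targeted gene, stood at 0.29, 1.55, -1.52 and 1.12 with its brighter probe. For that probe LysM-St18flox minus wild-type was -1.81 for macrophages and -0.43 for osteoclasts. A dimmer St18 probe, well above background on 1 array, gave 0.70 and 1.06. With the place of the probes relative to the floxed part unknown, this does not check the deletion.

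Of the members with a gene name, Sbno2 was the one that changed between the cell types in both genotypes. Sbno2 encodes a transcriptional regulator described in the response to interleukin 10 and in osteoclast fusion. Its member probe, BC019206, read -2.72, -0.95, -2.84 and -0.85, which is 1.76 higher in wild-type osteoclasts and 1.99 higher in LysM-St18flox osteoclasts than in macrophages. Both osteoclast arrays stood above both macrophage arrays, and the genotypes differed by -0.13 and 0.10. The 3 probes for the RefSeq accession of Sbno2 moved less. The brightest of them was 0.32 higher in wild-type osteoclasts and 1.02 higher in LysM-St18flox osteoclasts, and the next by 0.46 and 1.1. The dimmest read -0.07 and -0.05. Which transcripts of the gene each probe can detect is not analysed here.

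Tug1, a widely expressed long non-coding RNA, was the named member with the largest differences between genotypes that kept 1 sign in both cell types. The probe read 0.94, 0.79, 1.59 and 1.78, so that both LysM-St18flox arrays lay above both wild-type arrays. The difference was 0.65 in macrophages and 0.99 in osteoclasts, just short of 2-fold, and the latter became 1.24 with median centring. A probe for the Tug1 RefSeq accession gave 0.06 and 0.00 in the same comparisons, so the probes of this gene disagreed.

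Xist, the RNA that coats the inactive X chromosome, read 4.03, 3.95, 3.52 and 3.32. Both LysM-St18flox arrays were lower, with differences of -0.50 and -0.62, and the RefSeq probe for Xist gave differences of -0.58 and -0.46. Tsix, its antisense partner, was on the array under its own name and was above background on no array. Neat1, the scaffold RNA of nuclear paraspeckles, read 5.66, 5.80, 5.78 and 5.76, and no comparison of this probe exceeded 0.14 in size. The brighter of 2 Neat1 RefSeq probes was lower in LysM-St18flox, at -0.57 in macrophages and -0.58 in osteoclasts, which again sets probes of a gene apart.

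Kcnq1ot1, an imprinted antisense RNA that silences neighbouring genes in cis, read 0.44, 0.93, 0.20 and 0.72. It was 0.50 and 0.52 higher in osteoclasts of the wild type and of LysM-St18flox, below 2-fold in each, and 4 RefSeq probes above background on every array gave values between 0.08 and 0.34 and between -0.48 and 0.79. Nron was dim, at -3.68, -3.88, -3.56 and -4.11, with differences between osteoclasts and macrophages of -0.20 and -0.55. The RefSeq probe for Nron, above background on 3 arrays, read -3.85, -4.35, -4.35 and -5.44, with differences of -0.50 and -1.09. H19 and Hotair, lncRNAs known from imprinting and from the Hoxc cluster, and lincP21 were above background on no array, and Pinc was above it on 3.

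Of the other named members, BC024386, a long non-coding RNA, passed 2-fold in 1 comparison, at -1.09 between osteoclasts and macrophages of LysM-St18flox. It fell short of 2-fold under each of the 4 alternatives of scaling, background and source of values, where it lay between -0.92 and -0.46. Marf1, which encodes a regulator of messenger RNA stability first studied in oocytes, read -0.05, -0.38, 0.45 and -0.35. The genotypes differed by 0.51 in macrophages and 0.03 in osteoclasts. A pair of Marf1 RefSeq probes disagreed, with 1.46 and 0.75 for the brighter and -0.12 and -0.71 for the dimmer. Apobec3, a cytidine deaminase that restricts retroviruses, read -3.90, -3.11, -3.83 and -3.45, and was 0.79 and 0.38 higher in osteoclasts. Of 3 Apobec3 RefSeq probes, the brightest was 0.10 and 0.22 higher, and the others 0.98 and 0.54, and 0.97 and 0.54. The remaining 5, BC006965, BC048559, 2610037D02Rik, the zinc finger gene Zfp961 and the potassium channel subunit Kcng1, stayed within 2-fold in all 4 comparisons.

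**Figure D1:**
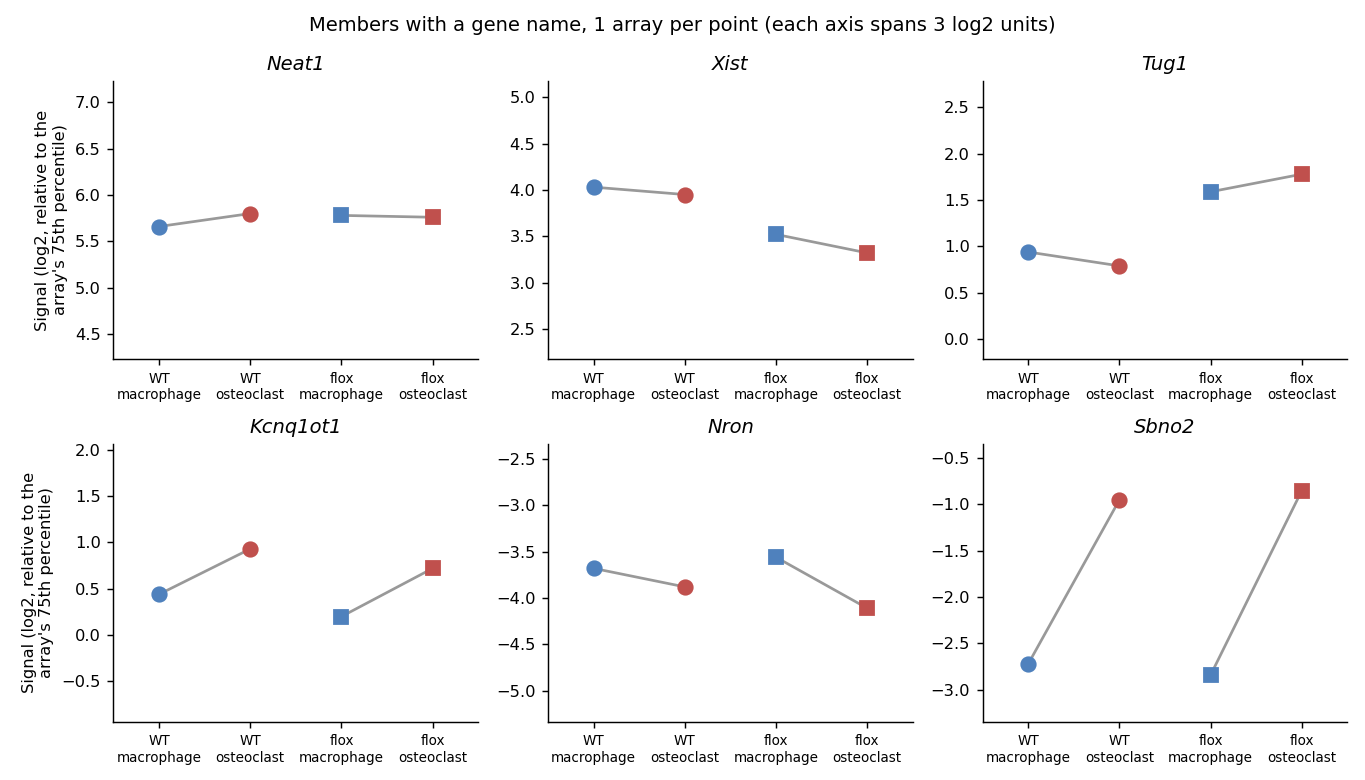
Signal of 6 named members on the 4 arrays (log2 relative to the 75th percentile, 1 array per point, macrophages blue, osteoclasts red, each vertical axis spanning the same range). Sbno2 is higher on both osteoclast arrays, by 1.76 and 1.99. Tug1 is higher on both LysM-St18flox arrays by 0.65 and 0.99, and Xist is lower on them, at -0.50 and -0.62.

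Between wild-type osteoclasts and macrophages, 306 members (3.07%) were at least 2-fold higher, where 3.7% of all 30895 probes well above background on the 4 arrays were, and 315 (3.16%) were at least 2-fold lower, where 5.1% of all were. NM_ probes weighted to the same distribution of mean signal gave 4.43% and 6.64%. In LysM-St18flox, 617 members (6.2%) were higher and 876 (8.8%) lower, against 8.46% and 10.1% of all probes and 9.28% and 12.0% of NM_ probes of like signal. Each of these shares was below that of the NM_ probes of like signal, a difference that was not tested. The members' median difference was 0.08 for wild-type and -0.10 for LysM-St18flox cells, and that of NM_ probes of like signal 0.02 and -0.07.

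Higher members made up 49.3% of those changed in the wild type and 41.3% for LysM-St18flox. The latter split turned with the scaling. Centring each array on its median, which moved the median of all probes from -0.03 to 0.14, gave 57.4% higher, while quantile normalization gave 47.8% and the authors' deposited log2 values 49.6%. The split thus has no direction that held under every scaling tried.

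**Figure D2:**
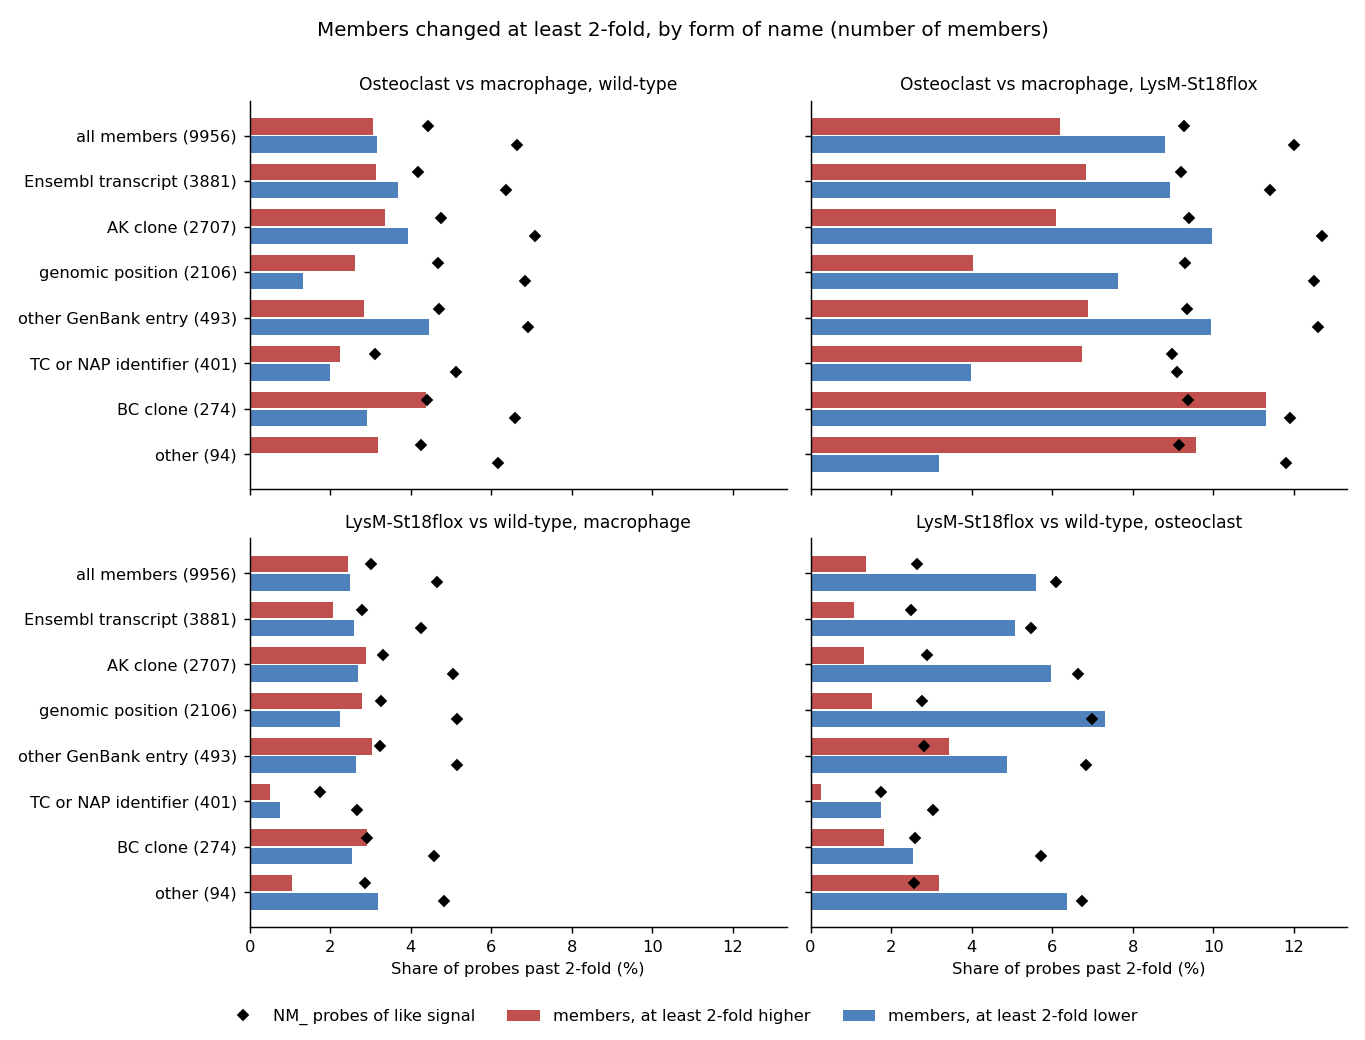
Share of members at least 2-fold higher (red) or lower (blue) in each comparison, in percent, by form of name with the number of members, and the share among NM_ probes of like signal (diamonds). Most bars end short of their diamond, as for genomic positions lower in wild-type osteoclasts (1.33% against 6.84%), while BC clones higher in LysM-St18flox osteoclasts (11.3% against 9.38%) pass it. The excess of lower over higher members between genotypes in osteoclasts turned with another scaling, to 315 higher and 269 lower with median centring.

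In the comparisons of cell types, genomic positions had the lowest shares among the 3 most numerous forms. In the wild type 55 (2.61%) were higher in osteoclasts and 28 (1.33%) lower, against 4.68% and 6.84% of NM_ probes of like signal. In LysM-St18flox they numbered 85 (4.04%) and 161 (7.64%), against 9.29% and 12.5%. Ensembl transcripts were higher in 3.14% and lower in 3.68% in the wild type, and AK clones in 3.36% and 3.92%. BC clones had 12 higher (4.38% against 4.40%) and 8 lower (2.92% against 6.59%) in the wild type, and 31 higher (11.3% against 9.38%) and 31 lower (11.3% against 11.9%) in LysM-St18flox. TC or NAP identifiers, the bright form, had 8 of 401 members lower in the wild type (2.0% against 5.13%).

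The members that rose most in osteoclasts of both genotypes came from 3 forms of name. EU862553, a GenBank entry, read -1.89, 2.57, -2.90 and 2.29, which is 4.46 and 5.2 higher in osteoclasts. The Ensembl transcript ENSMUST00000142548 read -3.48, 0.11, -3.50 and 1.45 (3.59 and 4.95 higher), and the AK clone AK148491 -3.85, -0.20, -4.53 and 0.10 (3.65 and 4.63 higher). For each of these, both osteoclast arrays stood above both macrophage arrays by more than 3 log2 units. AK039863 rose by 2.96 and 5.90 in the 2 genotypes, from -3.86 to -0.90 and from -5.35 to 0.55.

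Losses were as large. Z36233, a GenBank entry, read 0.40, -3.88, 1.20 and -3.62, with differences of -4.28 and -4.82 between osteoclasts and macrophages. ENSMUST00000109428 read 0.79, -3.20, 1.16 and -3.61, with differences of -3.98 and -4.77. CB193388 read 2.54, -0.70, 3.96 and -0.76, with differences of -3.24 and -4.72, and NAP095950-001 -1.57, -4.28, 0.38 and -4.27, with differences of -2.71 and -4.65. In each of these the osteoclast arrays of both genotypes were near each other, and the macrophage arrays of LysM-St18flox stood above those of the wild type.

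Across the 9956 members the difference between cell types in LysM-St18flox followed that in the wild type with a correlation of 0.708 and a total least squares slope of 1.72. Over NM_ probes these were 0.867 and 1.51. The 4 arrays give 2 such differences with no array in common, and probes are not independent replicates. The correlation rose with signal, from 0.485 in the dimmest 25% of the members through 0.707 and 0.817 to 0.837 in the brightest 25%, and from 0.594 through 0.834 and 0.902 to 0.903 for NM_ probes in the same ranges of signal. Of the members, 621 changed for wild-type and 1493 for LysM-St18flox cells, and 462 changed the same way in both, which is 74.4% of the first list and 30.9% of the second. Of NM_ probes of any signal, 1692 changed the same way in both, 87.4% and 43.3% of their lists. The 462 members comprised 214 higher and 248 lower, and 6 members changed in opposite directions.

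The difference was larger in LysM-St18flox for most members that changed. Among 862 members whose mean over the genotypes was at least 2-fold, 762 (88.4%) differed more in LysM-St18flox, by a median of 0.65. NM_ probes gave 87.8% and 0.65, so the members shared the amplitude seen in RefSeq genes. By form the share was 92.3% for Ensembl transcripts, 85.7% for AK clones, 85.6% for genomic positions and 82.9% for BC clones.

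**Figure D3:**
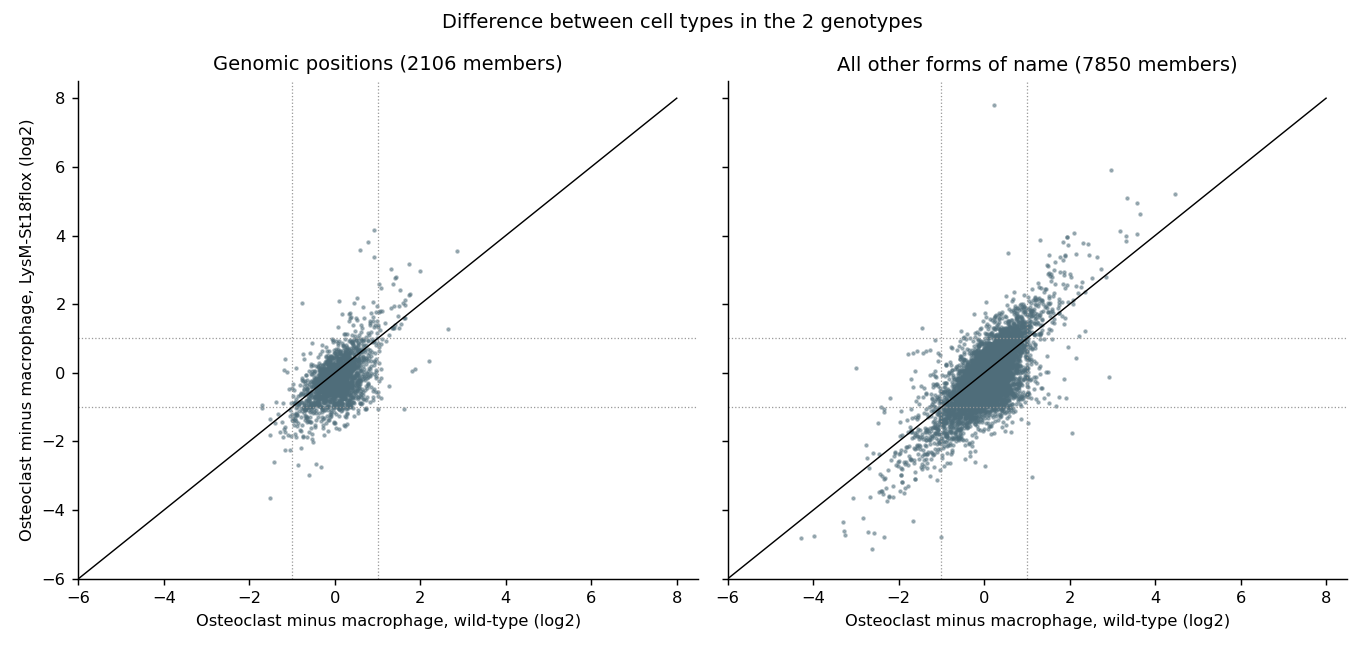
Difference between osteoclast and macrophage arrays (log2) in the wild type (horizontal) and LysM-St18flox (vertical), 1 point per member, for genomic positions (left) and all other forms (right). Dotted lines mark 2-fold and the diagonal equal differences. Points far from 0 lie mostly steeper than the diagonal, with a slope of 1.72 over all members, and the isolated point near the top is ENSMUST00000137715, at 0.23 and 7.79.

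Genomic-position names give an interval and end in F or R, taken here as the strand. Coordinates are those of the names, in the build mm9 (NCBI37) that the file headers state, and genes and exons at these places are not analysed here. The 2106 member probes stand for 1974 names and 1700 intervals on 20 chromosomes, 1018 probes forward and 1088 reverse. Member intervals had a median length of 10.3 kb and the other intervals 3.6 kb. By chromosome the share of position probes that were members ran from 35.5% on chromosome 3 to 56.2% on chromosome 17. Of 832 intervals probed on both strands, 274 had members on both strands, 369 on 1 and 189 on neither.

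Probes of the same interval and strand gave a check that does not need a gene name. Over 147 pairs of members with the same name, the correlation of the difference between cell types was 0.64 for wild-type and 0.65 for LysM-St18flox cells, and over 317 pairs on opposite strands of an interval it was 0.23 and 0.17. Overlapping intervals gave 0.38 and 0.52 on the same strand (387 pairs) and 0.10 and 0.09 on opposite strands (305 pairs). Pairs on the same strand thus moved together more than pairs on opposite strands, though pairs share arrays and some share a probe, and the difference was not tested. Pairs within an Ensembl transcript reached 0.90 and 0.94 (76 pairs), within an AK clone 0.55 and 0.80 (37 pairs), and within an NM_ accession 0.86 and 0.88 (5909 pairs), at higher pair signals for the Ensembl and NM_ pairs. The genotype differences of position pairs on the same strand correlated at 0.50 in macrophages and 0.42 in osteoclasts.

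The position member with the largest rise by the smaller of its differences lies at chr17:3198868-3394643, forward, and read -5.29, -2.44, -4.44 and -0.89. It was 2.85 and 3.55 higher in osteoclasts of the wild type and LysM-St18flox. The wild-type macrophage value of -5.29 lay next to that array's lowest signal well above background, -5.32, so the size of the wild-type rise rests on a value at the limit. A second probe on the same strand inside it, chr17:3346621-3347209, read -3.38, -1.39, -3.63 and -0.68 and rose by 1.99 and 2.95. For each probe the osteoclast values lay above the macrophage values. The region was picked for probes past 2-fold in both genotypes, so this is no separate check.

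At chr14:77511189-77522852, forward, 3 probes changed alike. They read -1.0, 0.38, -1.06 and 0.89 for the first, -2.21, -0.72, -2.15 and -0.48 for the next, and -2.02, -0.52, -1.82 and 0.11 for the last. Osteoclasts were higher by 1.38, 1.49 and 1.5 for the wild type and by 1.95, 1.66 and 1.93 for LysM-St18flox. This region, the one on chromosome 17 and those that follow were picked because all their member probes passed 2-fold in both genotypes. Agreement within them was therefore fixed by the choice. Over all pairs with the same interval and strand and at least 1 probe past 2-fold, both passed it in the same direction in 5 of 11 for the wild type and 9 of 25 for LysM-St18flox.

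At chr3:126989696-127112471 and chr3:127037711-127111912, both reverse, the probes rose by 1.35 and 1.4 in the wild type and by 2.58 and 2.76 in LysM-St18flox. Osteoclasts of LysM-St18flox exceeded those of the wild type there by 1.06 and 1.28, while macrophages differed by -0.18 and -0.07. At chr12:76744947-76778372 and chr12:76769763-76770169, both reverse, the rise was 1.55 and 1.17 for wild-type cells and 1.43 and 1.46 for LysM-St18flox cells. A pair of probes at chr9:65368908-65377592, reverse, rose by 1.42 and 1.5 and by 1.4 and 1.29.

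The interval chr5:74487385-74497428 changed on both strands, from -0.47 to 1.26 and from -1.15 to 1.11 on the reverse strand and from -0.13 to 1.5 and from -0.75 to 1.22 on the forward strand. The rise was 1.73 and 2.27 on the reverse strand and 1.63 and 1.98 on the forward strand, so opposite strands of this interval changed alike. At chr7:111526943-111545093 and chr7:111530578-111539097, both reverse, the probes fell by 1.52 and 1.04 in the wild type and by 1.80 and 2.24 in LysM-St18flox. Ranked by the smaller of its 2 differences, the position member with the largest loss was at chr11:117792051-117811334, reverse, which read -0.46, -1.98, 0.60 and -3.06, with differences of -1.52 and -3.66.

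**Figure D4:**
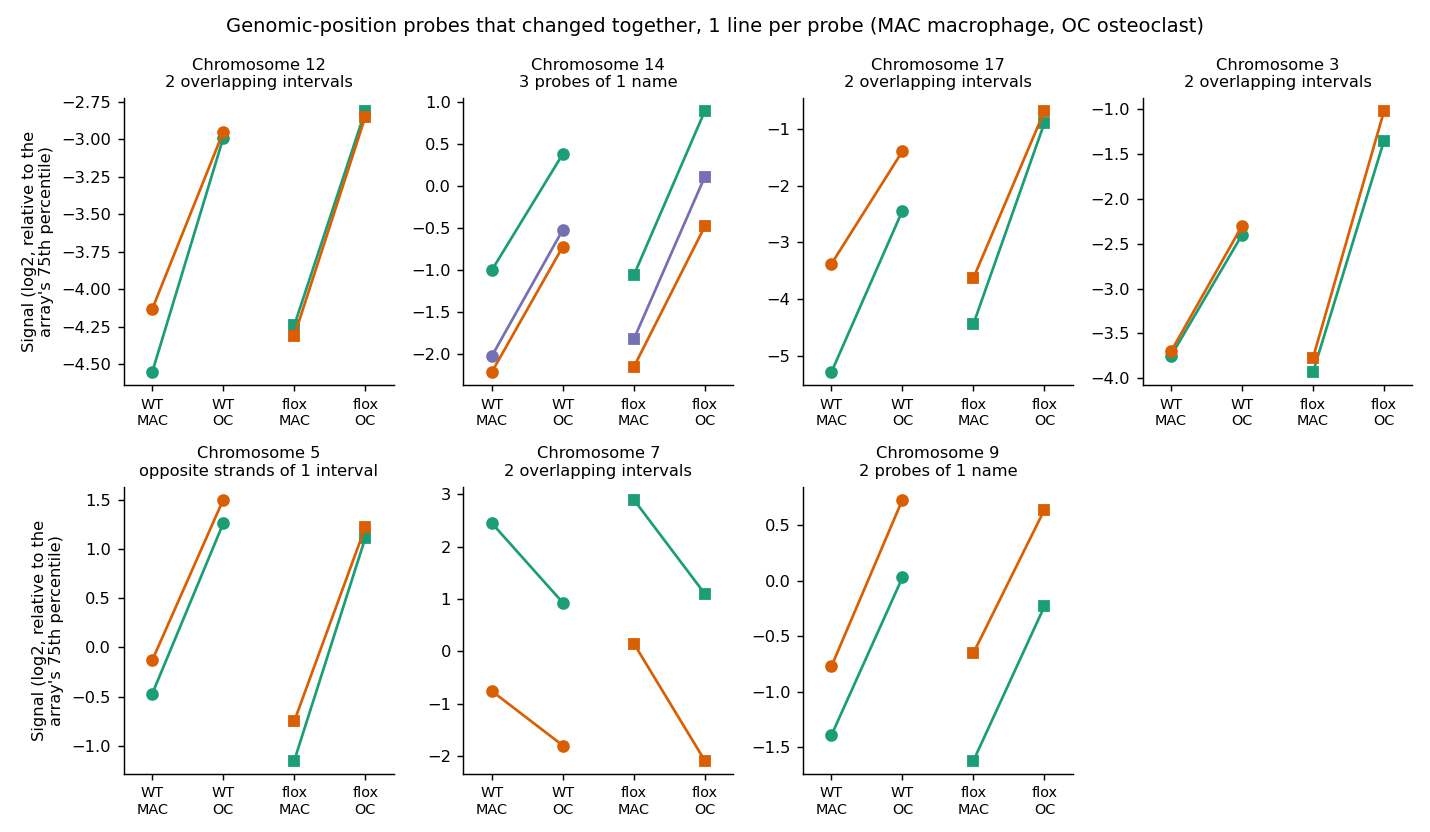
Signal (log2 relative to the 75th percentile) of genomic-position probes in 7 regions, 1 line per probe and genotype, with a vertical axis of its own in each panel. Except at chr5:74487385-74497428, every member probe of a name, or of overlapping names on a strand, changed at least 2-fold in both genotypes. At chr5:74487385-74497428 the probes that did so lie on opposite strands of an interval. The interval chr17:35080914-35090009 also had probes past 2-fold on both strands in both genotypes and is not shown. Lines of a panel run in 1 direction, since the regions were chosen for that, and are not equally steep. They rise toward the osteoclast in 6 panels and fall on chromosome 7, by 1.52 and 1.04 in the wild type.

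Between genotypes in macrophages, 243 members (2.44%) were at least 2-fold higher in LysM-St18flox, where 2.48% of all probes were, and 247 (2.48%) were at least 2-fold lower, where 2.93% of all were. NM_ probes of like signal gave 3.01% and 4.66%. With normexp background correction the counts were 77 and 127, and higher members made up 37.7% of the changed ones in place of 49.6%. The share was 51.9% with median centring, 52.4% with quantile normalization and 57.1% in the authors' deposited log2 values. Genomic positions were higher in 2.8% and lower in 2.23%, Ensembl transcripts in 2.06% and 2.6%, and AK clones in 2.88% and 2.7%.

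In osteoclasts, 136 members (1.37%) were at least 2-fold higher in LysM-St18flox, where 2.02% of all probes were, and 557 (5.59%) were lower, where 4.29% of all were. NM_ probes of like signal gave 2.65% and 6.10%. Higher members made up 19.6% of the changed ones here, but 53.9% with median centring, which moved the median of all probes from -0.07 to 0.17, 38.9% with quantile normalization, 32.7% with normexp and 45.9% in the authors' deposited log2 values. The excess of lower members therefore depends on the scaling. It also follows the signal, since the median difference was -0.43 in the dimmest of 20 signal bins and -0.01 in the brightest, with -0.50 and -0.08 for NM_ probes. Genomic positions, the dimmest form, had 154 lower (7.31%), against 6.99% of NM_ probes of like signal.

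**Figure D5:**
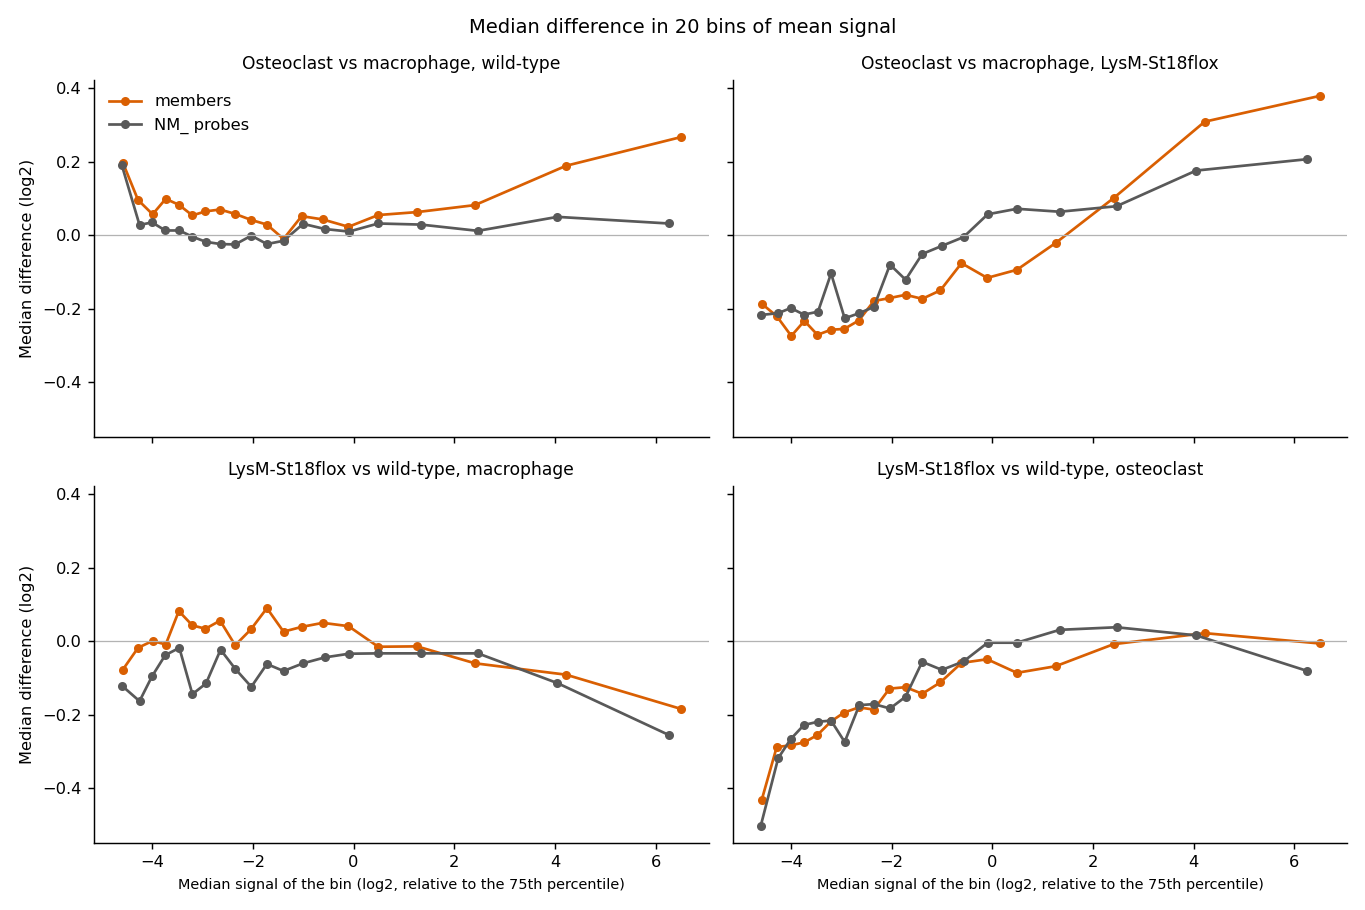
Median difference (log2) of members and of NM_ probes within 20 bins of mean signal, for the 4 comparisons. The lines of members and NM_ probes run close together in osteoclasts of the 2 genotypes, from -0.43 and -0.50 in the dimmest bin to -0.01 and -0.08 in the brightest. Members are higher than NM_ probes in the brightest bin of the wild-type cell type comparison, at 0.27 against 0.03. The level of each line moves with the scaling of the arrays.

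A single Ensembl transcript had the largest difference of all. ENSMUST00000137715 read -3.81, -3.58, -4.34 and 3.45, so that LysM-St18flox osteoclasts stood 7.03 above wild-type osteoclasts and 7.79 above their own macrophages, and the other 3 arrays were all low. In processed signal the spot gave 45.4, 64.4, 57.4 and 11608 units. The value comes from 1 spot on 1 array and no second probe carries this name among the members.

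A group of Ensembl transcripts was lower in osteoclasts than in macrophages of the wild type and not of LysM-St18flox. ENSMUST00000099046 read 2.77, 0.99, 3.00 and 3.57 and ENSMUST00000099050 3.57, 2.0, 3.85 and 4.48. ENSMUST00000177969 read 2.49, 0.82, 2.63 and 3.21. In each, the wild-type osteoclast array was the low one, and the genotype difference was 2.58, 2.48 and 2.39 in osteoclasts against 0.23, 0.28 and 0.14 in macrophages. Whether these probes share sequence is not analysed here. In the other direction, ENSMUST00000026302 read -3.66, -1.59, -3.15 and -4.91 with a difference of -3.32 between LysM-St18flox and wild-type osteoclasts.

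In macrophages the largest rise was that of AK171273, at -2.29, -3.30, 1.20 and -3.59, which is 3.49 higher in LysM-St18flox, with the other 3 arrays far below it. AK087806 read -1.72, -4.72, -5.42 and -5.29 and differed by -3.70, the largest difference in size there, the wild-type macrophage array being the high one. Its low values lay near the lowest signals well above background on their arrays, which were -4.89, -5.56 and -5.50 in the same order. The position chr7:26054813-26063725, forward, read -2.01, -1.92, -4.67 and -2.59, a difference of -2.66 in macrophages and -0.67 in osteoclasts.

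The lists of members that differed between genotypes overlapped in part. Of 490 changed in macrophages and 693 in osteoclasts, 98 changed the same way, 20% and 14.1% of the lists, with 28 higher and 70 lower, and 17 changed in opposite directions. Of NM_ probes of any signal, which are brighter as a class, 246 changed the same way, 23.2% and 22.6% of their lists. In opposite directions there were 23. The correlation of the differences was 0.370, against 0.441 for NM_ probes. These 2 comparisons share no array.

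ENSMUST00000078756 was higher in both cell types, at 1.75, 2.79, 4.04 and 5.01, by 2.28 in macrophages and 2.22 in osteoclasts. It was also 1.03 and 0.97 higher in osteoclasts of the wild type and LysM-St18flox. ENSMUST00000117472, at 1.79, 1.59, 3.98 and 3.47, was higher by 2.19 and 1.88, and the GenBank entry GU332589, at 3.51, 3.43, 5.42 and 4.96, by 1.91 and 1.53. For these 3 members both LysM-St18flox arrays stood above both wild-type arrays.

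BC057602 was lower in both cell types, at -1.82, -1.44, -4.94 and -3.74, with differences of -3.12 and -2.30. ENSMUST00000143214 read -1.50, -0.85, -3.34 and -3.00, with differences of -1.85 and -2.15. The position chr1:152001112-152012796, reverse, read -3.10, -3.30, -5.50 and -5.00, with differences of -2.40 and -1.70, the latter being -0.94 with normexp. Both LysM-St18flox arrays were the low ones in each.

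Among genomic positions, 24 probes changed the same way between genotypes in both cell types, 8 higher and 16 lower in LysM-St18flox. They came from 2106 probes, and among 18929 NM_ probes of any signal 63 were higher and 183 lower in both. At chr16, overlapping forward intervals agreed, with chr16:77670599-77691642 at -1.40, -1.78, -0.05 and -0.71 and chr16:77682803-77708453 at -3.17, -3.57, -1.79 and -2.41. They were 1.35 and 1.38 higher in macrophages and 1.07 and 1.16 higher in osteoclasts. At chr5:96591892-96606467, forward, a pair of bright probes read 3.80, 3.82, 4.89 and 4.96 and 4.10, 4.13, 5.18 and 5.17, higher by 1.09 in macrophages for each and by 1.14 and 1.05 in osteoclasts. These regions were picked out for their agreement after the values were seen. Among all pairs with the same interval and strand and at least 1 probe past 2-fold, both passed it in the same direction in 4 of 17 for macrophages and 3 of 23 for osteoclasts. For overlapping intervals on the same strand it was 6 of 44 and 8 of 65.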

How the data were processed

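Total RNA of the 4 cultures was labelled with Cy3 and hybridised to single-colour arrays of a slide. The submitters' processing notes name Agilent Feature Extraction 11.0.1.1. Per the file headers, each spot has a processed intensity (background-subtracted and detrended within the array), a median intensity of spot and of local background, and flags of 0 or 1. The authors also deposited log2 values for 30909 probes. No source used here describes their making. Sorted columns differ by at most 0.001, as after quantile normalization, with a median of 9.39 in each. All 9956 members are in that table.

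Of 59305 spots per array, 80 to 126 flagged as uneven or outlying were left out, besides 3671 control spots. Spots of a probe were averaged on the log2 scale, and the array's 75th percentile over probes was subtracted (signals of 635.5, 769.9, 1159.3 and 1061.9). No spot was saturated. The lowest signal well above background lay between -5.56 and -4.89. A probe counted as well above background where more than 50% of its spots did. For NM_ probes of like signal, 20 bins of mean signal with equal numbers of members were set, and NM_ shares were weighted by the members in each (at least 292 NM_ probes per bin). The weighting was checked on simulated data. Tools were Python 3.11.15, pandas 2.3.3, numpy 2.4.6, scipy 1.17.1, R 4.3.3 and limma 3.58.1.

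The alternatives were median centring, quantile normalization, normexp with an offset of 50, the authors' deposited values, other filters, folds of 1.5 and 3, 1 probe for each name, and 10 or 50 bins. Named are the members ranking highest and lowest by the smaller difference of both genotypes within each form, by genotype difference in each cell type and in both, and by the difference between genotypes of the cell type contrast, those changed in opposite directions, those at the background limit, and those with a gene name. A comparison by gene name classes was planned. It could not be run, because the columns used hold no gene name, and names were matched to the gene table instead. Members and lists were chosen with earlier results of these data known. Genes at the genomic positions and probe sequences are not analysed here.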

Additional observations from a re-analysis of the deposited data

Results flagged for a closer look

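Of the members, 6 changed at least 2-fold in opposite directions between the cell types in the 2 genotypes, as did 4 of 18929 NM_ probes of any signal. The difference was not tested. From the dimmest to the brightest 25% of the members these numbered 3, 3, 0 and 0. In the same ranges of signal the NM_ probes numbered 0, 1, 2 and 1. AB076722, a GenBank entry, had differences of 1.13 for wild-type and -3.04 for LysM-St18flox cells, where the LysM-St18flox macrophage array was the high one. ENSMUST00000026302 had 2.07 and -1.76, ENSMUST00000145506 1.02 and -1.45, and AK131842 -1.46 and 1.30. The positions chr15:97495641-97503721 and chr5:110502650-110522475, both forward, had 1.61 and -1.04, and 1.0 and -1.06. With normexp background correction each of the 6 had at least 1 of its values within 2-fold.

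In 17 members the genotypes differed at least 2-fold in opposite directions in macrophages and osteoclasts, 7 of them genomic positions. They did so in 23 of 18929 NM_ probes of any signal, and this was not tested either. From the dimmest to the brightest 25% of the members the counts were 7, 8, 2 and 0. For NM_ probes in the same ranges of signal they were 1, 9, 5 and 8. The positions, in macrophages and then osteoclasts, were chr11:96111499-96126224, reverse, with -1.26 and 1.78, chr9:118291593-118324230, forward, with -1.28 and 1.96, and chr17:15357376-15385701, forward, with -1.01 and 1.45. The forward position chrX:150158481-150175838 had -1.71 and 1.1. The opposite order was found at chr15:97495641-97503721, with 1.22 and -1.44, chr10:61486151-61488363, forward, with 1.41 and -1.02, and chr11:117792051-117811334, reverse, with 1.06 and -1.08. Named entries with this pattern were AB076722 at 2.75 and -1.42, AK131842 at -1.51 and 1.25, AK039863 at -1.49 and 1.45, and ENSMUST00000145506 at 1.18 and -1.28.

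Outside the members, 103 probes without a RefSeq accession were well above background on both osteoclast arrays and on neither macrophage array, and 352 the other way round, data that the comparisons leave out. They are 0.50% and 1.70% of such probes, and the shares among NM_ probes are 0.73% and 1.09%. Among the first, ENSMUST00000163531 was at least 41.1-fold higher in wild-type osteoclasts and at least 69.2-fold in those of LysM-St18flox, and the position chr2:157239202-157239982, forward, at least 14.6-fold and 44-fold, each set against the higher of the dim probe's signal and the array's lowest signal well above background. Among the others, ENSMUST00000105520 was at least 14-fold and 22.7-fold lower in osteoclasts.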

How the results depend on the processing

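The 8 counts of changed members and their 8 differences from NM_ probes of like signal, in percentage points, were recomputed under each alternative, in the order higher and lower for wild-type and LysM-St18flox cell types and for macrophage and osteoclast genotypes. The differences from NM_ probes were -1.36, -3.48, -3.08, -3.20, -0.57, -2.17, -1.28 and -0.50, and 1 turned positive, that of members higher in LysM-St18flox macrophages, which was 0.18 at 1.5-fold. With normexp the 8 counts fell to 130, 180, 410, 484, 77, 127, 68 and 140, and among probes above the members' median signal to 126, 167, 334, 374, 93, 98, 63 and 100, where fewer probes enter by construction. At 1.5-fold they were 1090, 821, 1418, 2136, 950, 1002, 527 and 1819, and at 3-fold 87, 104, 236, 322, 37, 45, 32 and 80. Counts in osteoclasts between genotypes became 315 higher and 269 lower with median centring, 208 and 327 with quantile normalization and 240 and 283 in the authors' deposited values. With probes well above background on at least 1 of 2 arrays, 395 were higher and 405 lower in LysM-St18flox macrophages and 222 higher in osteoclasts.

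Differences from NM_ probes that moved were, for members lower in wild-type osteoclasts than macrophages, -3.91 with median centring, -2.23 with normexp, -3.94 with the wider filter, -2.93 among bright probes, -5.23 at 1.5-fold, -1.57 at 3-fold and -4.62 with 1 probe for each name. For members higher in the wild type they were -0.90 with normexp, -2.99 with the wider filter, -0.94 at 3-fold and -2.27 with 1 probe for each name. For LysM-St18flox they were, for higher members, -3.69 with median centring, -2.14 with normexp, -4.99 with the wider filter, -4.08 at 1.5-fold and -1.58 at 3-fold, and for lower members -1.33 at 1.5-fold and -4.91 with 1 probe for each name. Between genotypes in macrophages they were, for higher members, -0.90 with the wider filter and -1.28 with 1 probe for each name, and for lower members -1.25 with normexp, -1.75 in the authors' deposited values, -0.92 among bright probes, -6.24 at 1.5-fold, -0.30 at 3-fold and -1.45 with 1 probe for each name. In osteoclasts they were, for higher members, -1.89 with median centring, -0.48 with normexp, -1.61 in the authors' deposited values, -2.51 with the wider filter, -2.61 at 1.5-fold, -0.24 at 3-fold and -2.15 with 1 probe for each name, and for lower members -1.10 at 1.5-fold. Except where construction shows it, the cause was not tested.

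Of 1680 values of named members under 4 alternatives, 1593 kept their side of 2-fold, 76 fell within it, 46 of these with normexp, 11 passed it and none turned. Many of these members were named for extreme values, and the alternatives reuse the same spots. The kept share thus shows the effect of processing alone and replaces no replicate. Dim members rest on signals near background. No paired analysis was possible because each group has 1 array and no replicate number.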

Other observations

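AY512915, a long non-coding RNA named by the gene table, was well above background in wild-type osteoclasts alone, where it read -3.59, against -7.52 in wild-type macrophages and -7.83 and -7.80 in the LysM-St18flox arrays. BC042761, another long non-coding RNA, was above background on 3 arrays, at -5.02, -4.18 and -5.29, and read -6.77, not well above background, in LysM-St18flox osteoclasts.

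The 5 brightest members changed in none of the comparisons. AK140265 read 8.70, 8.64, 8.15 and 8.28, and ENSMUST00000092163 read 8.82, 8.58, 8.22 and 8.12.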
